A study of Sus scrofa with 40 samples.

Results

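Genes that write and erase methyl groups on histone lysines were measured in mature pig (Sus scrofa) oocytes, arrested at metaphase II until fertilisation. Members were taken by name alone: the KDM, KMT2, SETD, SUV39H and SUV420H families, together with named subunits and enzymes such as EZH1, EZH2, EED, SUZ12, JARID2, EHMT2, NSD1 and ASH1L. The rule gave 39 genes of the 38794 named rows that the pooled and the single-oocyte tables share. By target mark they comprised 9 genes for H3K4, 10 for H3K9, 6 for H3K27, 5 for H3K36 and 2 for H4K20, and 7 SET or JmjC genes with another or no clear histone target. By role there were 20 writers (methyltransferases and their complex subunits), 12 erasers (demethylases) and those 7 others. A further 10 listed genes, among them KMT2C, KMT2D, KDM6A and DOT1L, had no row of that name shared by the tables and were not analysed here.

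The study set mtDNA-deficient against mtDNA-normal oocytes, from commercial hybrid pigs (Large White, Duroc and Berkshire), to determine how their RNA differs. The state is a group label. Titles of single oocytes read BCBneg where the label is deficient and BCBpos where it is normal, and those of pools read neg and pos. Pooled oocytes gave 5 deficient and 6 normal libraries by the sample labels, where the series' design text has 5 in each group, and all 6 were used. They were made with the Arcturus Picopure extraction kit and the Nugen Ovation RNA-seq (SPIA) systems. Single oocytes gave 14 deficient and 15 normal libraries, made by extraction in the tube and the Nugen SoLo kit with pig InDA-C primers. Oocytes of the same state whose titles open with the same number were added together, giving 4 deficient and 3 normal sums; what that number, used here as the name of a sum, stands for is not stated. Nothing in the labels ties libraries to separate animals, so the p-values reflect the spread among these libraries, which may be technical. How many oocytes a pool held is not given in the sources used here.

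Histone lysine methylation is written mostly by SET-domain enzymes and removed by amine oxidases of the LSD family or by JmjC oxygenases, and each enzyme is selective for particular lysines. H3K4 methylation marks promoters, H3K36 methylation marks transcribed gene bodies, and H3K9 and H3K27 methylation mark silent chromatin, the last through Polycomb repressive complex PRC2. In growing mouse oocytes these marks guide DNA methylation, including that of imprinted genes, and the mature oocyte stores RNA for many of the enzymes for use by the embryo.

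The pools held 14480546 to 29538982 counts each and the single oocytes 706929 to 3067523. All 7 oocyte markers looked for had counts in every group, with GDF9 at 1596 ± 537 CPM (counts scaled to library size) in pools (SD, n = 11). Their summed level spanned 3004 to 8438 CPM in deficient pools and 2576 to 7781 CPM in normal pools. Of 9 cumulus and granulosa markers in the tables, HSD17B1, AMH, INHA and FOXL2 were at 0 in every pool, and the summed level was 25.8 to 111 CPM in deficient pools and 39.8 to 111 CPM in normal pools, nearly all of it VCAN. The summed level of 3 theca and stroma markers was 2.10 to 5.33 CPM in deficient and 3.98 to 8.05 CPM in normal pools, and that of 3 leukocyte and blood markers was 0 to 3.93 CPM in deficient and 0.185 to 0.979 CPM in normal pools. Deficient pools held 21391639 ± 4149571 counts (SD, n = 5), against 25198529 ± 5125445 in normal pools (SD, n = 6). Deficient pools had 16574 ± 1666 genes with a count (SD, n = 5), against 17938 ± 1556 in normal pools (SD, n = 6). Their share of counts from 18S RNA (RN18S) was 0.297 ± 0.127% against 0.655 ± 0.428% in normal pools. Single deficient oocytes had a RN18S share of 3.89 ± 0.753% (SD, n = 14), against 2.92 ± 0.645% in single normal oocytes (SD, n = 15), the opposite order to the pools. A single transcript, LOC102158401, held 58.5 ± 6.706% of counts in single deficient and 64.2 ± 5.205% in single normal oocytes. In pools its share was 0.0031% to 0.0275%. In single-oocyte sums the summed level of the cumulus and granulosa markers was 6.70 to 9.21 CPM in deficient and 8.05 to 8.80 CPM in normal sums, and that of the theca and stroma markers 11.5 to 39.7 CPM in deficient and 7.80 to 26.9 CPM in normal sums. The part of these library measures in the results was not tested, except where a fit with the number of genes detected is given. In pooled oocytes, fewer counts sequenced, fewer contributing cells and less RNA per cell cannot be told apart.

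Between deficient and normal pools, no member passed the threshold, an adjusted p under 0.05 over all 13540 genes that passed edgeR's default count filter. The 4 members with the smallest p were the H3K36 writer SETD2, the PRC2 subunits SUZ12 and JARID2, all with higher means in deficient pools, and the H3K9 writer SETDB1, with a lower mean. Of the 39 members, 35 were tested, and KDM2B, SETD6, SETD9 and SUV39H1 were below the filter. edgeR's quasi-likelihood test called 0 genes in all (0%), with 726 genes at an unadjusted p under 0.05 (5.36%), and limma-voom called 0. DESeq2 called 28 genes, SETD2 among them. At an unadjusted p under 0.05 stood 4 of 35 members, which is 11.4%, and in 2 of 35 the groups did not overlap, against 0.606% of all genes tested. The log2 difference, deficient over normal, was above 0 in 18 members and below 0 in 17, where 49.8% of all genes were above 0. Its median over members was 0.08, against -0.0019 over all genes tested.

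**Figure D1:**
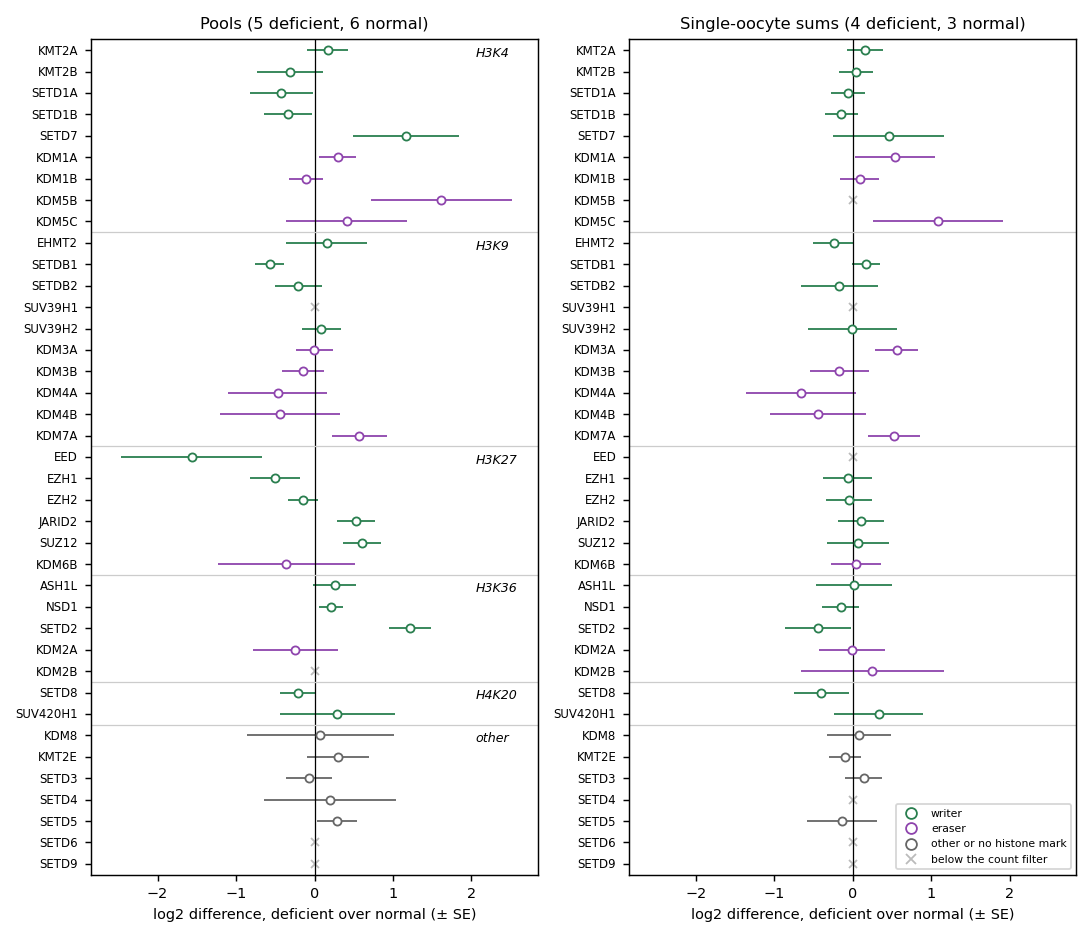
Log2 differences, deficient over normal, of the members from edgeR, with their SE, in 5 deficient and 6 normal pools (left) and in 4 deficient and 3 normal single-oocyte sums (right), ordered by target mark and coloured by role. SETD2 stands at 1.22 in pools and at -0.45 in sums, SETDB1 at -0.57 in pools and at 0.17 in sums, and no member passed the threshold in either.

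The H3K36 block was led by SETD2, which trimethylates H3K36 along transcribed genes and in mouse oocytes is needed to set DNA methylation. SETD2 had 48.7, 59.97, 29.4, 35.8 and 34.6 CPM in deficient pools A1, A2, A3, B2 and B4, against a lowest of 12.6, a median of 15.6 and a highest of 25.3 CPM in normal pools. Every deficient pool lay above every normal pool. SETD2 averaged 41.7 ± 12.5 CPM over the 5 deficient and 17.9 ± 5.31 CPM over the 6 normal pools (SD), and the log2 difference was 1.22 (SE 0.27). Its unadjusted p was 0.000341 and its adjusted p 0.561 in edgeR, whereas DESeq2 gave an adjusted p of 0.0157, and the adjusted p ran from 0.0157 to 0.999 over all alternatives. Within pools titled A the difference was 1.66, and within pools titled B 0.71. With the number of genes detected in the fit it was 1.18.

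The other H3K36 genes lay closer together. NSD1, which adds the first methyl groups to H3K36, had 552, 501, 578, 444 and 538 CPM in the deficient pools in the same order, against a lowest of 411, a median of 444 and a highest of 494 CPM in normal pools. All but 1 of the deficient values lay above the normal range, yet the log2 difference was 0.21 (SE 0.16) with an adjusted p of 0.921 (edgeR). ASH1L, another H3K36 methyltransferase, differed by 0.26 (SE 0.28), so that all 3 writers among the members had higher fitted levels in deficient pools. Outside the naming rule, WHSC1 (NSD2) stood at -0.93 (SE 0.40) and WHSC1L1 at 0.26 (SE 0.29). The eraser KDM2A had 20.8, 3.45, 11.99, 15.3 and 14.8 CPM in deficient pools, against a lowest of 1.59, a median of 14.5 and a highest of 34.5 CPM in normal pools. Both states of KDM2A spread over an overlapping range, and the difference of -0.24 (SE 0.54) was smaller than its error. KDM2B had 18 counts over all 11 pools.

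Among the H3K9 genes, SETDB1, which trimethylates H3K9 and is known for silencing retroviral elements, stood lower in deficient pools. It had 155, 118, 155, 164 and 159 CPM in deficient pools A1, A2, A3, B2 and B4, against a lowest of 171, a median of 238 and a highest of 267 CPM in normal pools. Every deficient pool lay below every normal pool, with the smallest gap between deficient B2 and normal A3. SETDB1 averaged 150 ± 18.3 CPM over the 5 deficient and 223 ± 38.3 CPM over the 6 normal pools (SD). The log2 difference of -0.57 (SE 0.18) had an unadjusted p of 0.00588 and an adjusted p of 0.758 (edgeR), and it was -0.68 within A, -0.45 within B and -0.41 with the number of genes detected in the fit.

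No other of the 9 H3K9 genes tested reached an unadjusted p under 0.05, and 6 of the 9 had fitted levels lower in deficient pools. KDM3A, a JmjC eraser of H3K9 mono- and dimethylation, had 233, 126, 165, 234 and 280 CPM in deficient pools, against a lowest of 132, a median of 207 and a highest of 289 CPM in normal pools. The states covered nearly the same range, with a difference of -0.0023 (SE 0.24) whose sign turned in 9 of 22 alternatives. KDM7A, a JmjC eraser of H3K9 and H3K27 dimethylation, had 160, 162, 115, 46.9 and 187 CPM in deficient pools, against a lowest of 34.8, a median of 99.7 and a highest of 137 CPM in normal pools. Its difference was 0.57 (SE 0.35, adjusted p 0.921 in edgeR), and deficient B2 lay far below the other deficient pools. The writers SETDB2, SUV39H2 and EHMT2 (G9a) differed by -0.21 (SE 0.30), 0.09 (SE 0.25) and 0.16 (SE 0.52).

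No H3K27 gene passed. SUZ12, a core subunit of the complex, had 58.1, 92.4, 73.0, 66.5 and 48.2 CPM in deficient pools, against a lowest of 32.4, a median of 43.2 and a highest of 67.0 CPM in normal pools. The ranges overlapped through normal A3 at 67.0 CPM and deficient B4 at 48.2 CPM. SUZ12 averaged 67.6 ± 16.7 CPM over the 5 deficient and 44.5 ± 12.8 CPM over the 6 normal pools (SD). The difference of 0.60 (SE 0.24) had an unadjusted p of 0.0219 and an adjusted p of 0.903 (edgeR), and it was 0.40 with the number of genes detected in the fit.

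JARID2, an accessory PRC2 subunit that is built like a demethylase but lacks that activity, had 165, 51.3, 90.9, 103 and 108 CPM in deficient pools, against a lowest of 63.8, a median of 70.9 and a highest of 82.3 CPM in normal pools. Deficient A2 lay below all normal pools and the other 4 above them. The difference was 0.53 (SE 0.24, unadjusted p 0.0446, adjusted p 0.921 in edgeR). It was 0.28 without deficient A1 and 0.70 with the number of genes detected in the fit. The catalytic subunits EZH2 and EZH1 had lower fitted levels in deficient pools, at -0.15 (SE 0.19) and -0.50 (SE 0.32), and EED, the subunit that binds H3K27 trimethylation, stood at -1.56 (SE 0.89) on 316 counts over all pools. EZH1 was -0.95 within pools titled A and -0.05 within pools titled B, and EED was -2.76 without deficient B2, its highest deficient pool, and -0.68 within pools titled B. The eraser KDM6B had 2.60, 1.18, 0.250, 1.44 and 2.64 CPM in deficient pools, against a lowest of 0, a median of 1.71 and a highest of 5.24 CPM in normal pools, with a difference of -0.36 (SE 0.88).

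**Figure D2:**
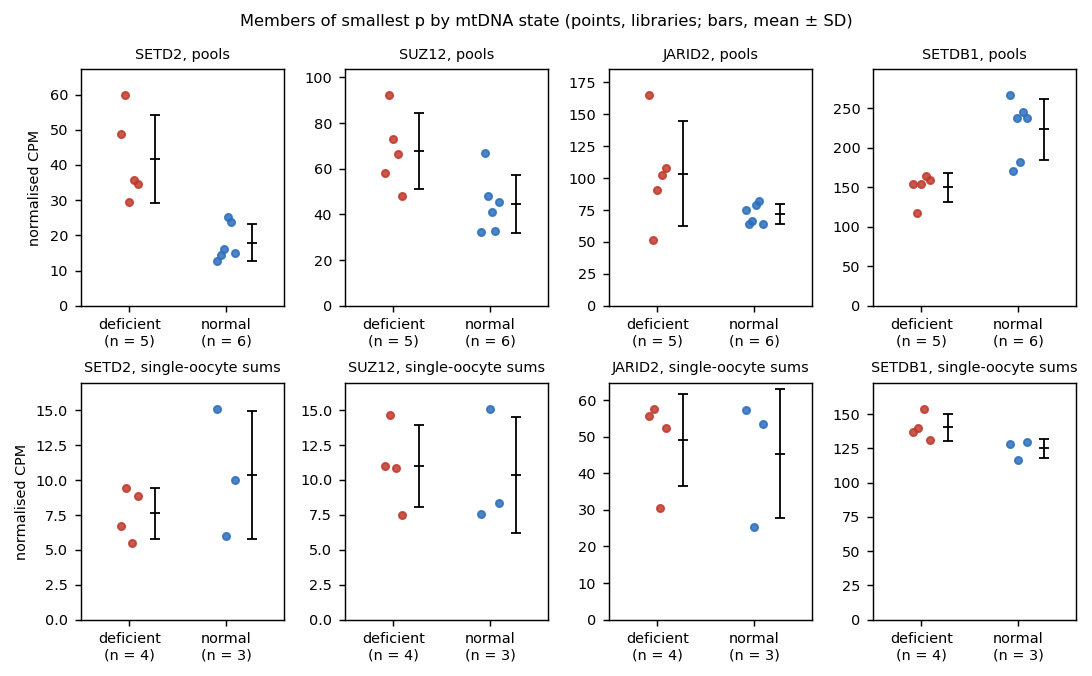
Normalised CPM of SETD2, SUZ12, JARID2 and SETDB1 in each pool (top) and each single-oocyte sum (bottom), deficient in red and normal in blue, with mean and SD beside the points. In pools SETD2 spans 29.4 to 59.97 CPM in deficient and 12.6 to 25.3 CPM in normal libraries, whereas in sums it spans 5.51 to 9.45 CPM in deficient and 5.98 to 15.1 CPM in normal libraries.

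None of the 9 H3K4 genes reached an unadjusted p under 0.05 between the pools. KMT2A (MLL1), an H3K4 methyltransferase of a COMPASS-like complex, had 455, 568, 817, 273 and 357 CPM in deficient pools, against a lowest of 318, a median of 430 and a highest of 620 CPM in normal pools. SETD1B, the methyltransferase of a SET1 complex, had 155, 63.8, 106, 250 and 124 CPM in deficient pools, against a lowest of 120, a median of 182 and a highest of 228 CPM in normal pools. KDM1B (LSD2), an eraser needed for maternal imprints in mice, had 391.6, 491, 475, 320 and 315 CPM in deficient pools, against a lowest of 303, a median of 391.5 and a highest of 655 CPM in normal pools. In each of these genes the states overlapped over most of their range, and the differences of 0.17 (SE 0.26), -0.34 (SE 0.30) and -0.10 (SE 0.22) were smaller than or close to their errors. KMT2B, SETD1A and SETD1B all had fitted levels lower in deficient pools, between -0.42 and -0.31. The widest H3K4 differences, 1.61 (SE 0.90) in the eraser KDM5B and 1.17 (SE 0.68) in SETD7, came from genes whose pools spanned 0.0338 to 5.06 CPM and 0.549 to 19.7 CPM. KDM5B was 0.47 within pools titled A, 2.67 within pools titled B and 0.87 without deficient B4. SETD7 was 0.31 within pools titled A, 2.28 within pools titled B and 0.73 without deficient B4.

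The H4K20 writer SETD8, which places the first methyl group, had 35.3, 47.8, 35.4, 36.2 and 19.7 CPM in deficient pools, against a lowest of 32.9, a median of 42.8 and a highest of 43.9 CPM in normal pools. Deficient B4 lay below and deficient A2 above every normal pool, and the difference was -0.21 (SE 0.23). KMT2E (MLL5), a SET protein without clear methyltransferase activity, had 999, 3124, 2380, 1338 and 786 CPM in deficient pools, against a lowest of 879, a median of 1064 and a highest of 3194 CPM in normal pools. The high values came from deficient A2 and A3 and from normal A3, so that the states overlapped, with a difference of 0.30 (SE 0.40). All 5 tested genes without a histone mark of their own lay between -0.07 and 0.30.

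**Figure D3:**
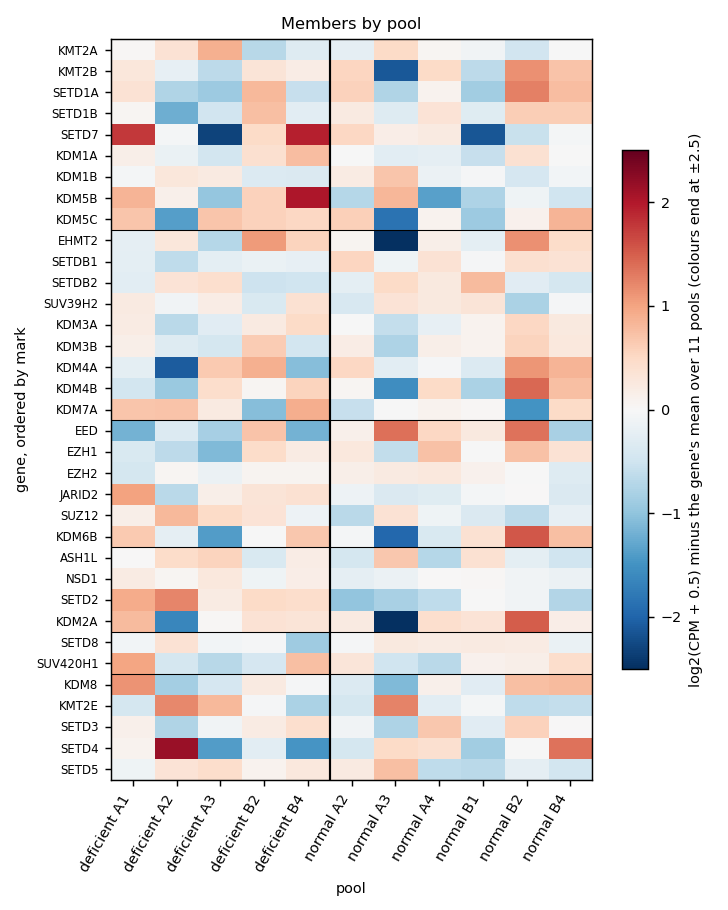
Log2(CPM + 0.5) of each tested member in each pool minus its mean over the 11 pools, in the order of the marks, with deficient pools left of the line and normal pools right of it. SETD2 is red in all 5 deficient pools, and in normal A3 a run of genes is blue (KMT2B, EHMT2, KDM4B, KDM6B, KDM2A), of which EHMT2 and KDM2A exceed the colour range.

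The members varied among pools in ways that crossed the states. Normal A3, with 15057 genes detected, was the lowest pool for 9 of the 35 members and the highest for 5, and normal B2, with 19245 genes detected, was the highest for 8. The SD of log2(CPM + 0.5) over the 11 pools was 0.16 in NSD1 and 0.22 in EZH2, against 1.33 in SETD7 and 1.13 in KDM2A. Among the 9 members tested here that the comparison of library types calls lower in pools, the median SD was 0.80, and all 9 lay below their median over pools in normal A3 and above it in normal B2, while 8 of 9 lay below it in deficient A2. Of all genes called lower in pools, 69.2% lay below their median in normal A3, 76.5% above it in normal B2 and 70.6% below it in deficient A2. Among the 16 that it calls higher in pools the median SD was 0.46, with 7 of 16 below their median in normal A3, 5 of 16 above it in normal B2 and 5 of 16 below it in deficient A2. The shares of all genes called higher were 32.2%, 25.3% and 33.4%. Over all genes tested in pools the corresponding medians were 0.76 and 0.48, so the members' spread was close to that of other genes of the same kind.

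Between deficient and normal single-oocyte sums no member passed the threshold, and none reached an unadjusted p under 0.05. This fit had no term for the title number. Among the 6 sums with a partner of equal number, 1 member reached an unadjusted p under 0.05 in edgeR, with or without the number as block. Of all 12059 genes in those fits, 384 did so with the block and 230 without. In the fit of all sums, 33 of 39 members were tested among 11964 genes, and EED, KDM5B, SETD4, SETD6, SETD9 and SUV39H1 were below the filter. edgeR called 0 genes (0%), with 231 at an unadjusted p under 0.05 (1.93%), while DESeq2 called 2 and limma-voom 0. The adjusted p of every member was 0.999981 in edgeR. The log2 difference was above 0 in 17 members and below 0 in 16, where 49.7% of all genes were above 0, with a median of 0.02 against -0.0018 over all genes. The groups did not overlap in 2 members, KDM3A and SETDB1 (3.97% of all genes did not overlap). Where a title number had oocytes of 1 date only, the number and the date cannot be told apart: deficient sums 1 and 3 and normal sum 3 came from 17 September alone, deficient sum 2 and normal sum 2 from 22 September alone, and the sums numbered 4 from both.

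SETD2 had 6.70, 9.45, 5.51 and 8.84 CPM in deficient sums 1 to 4, against 15.1, 5.98 and 10.03 CPM in normal sums 2 to 4. The groups overlapped, but within each of numbers 2, 3 and 4 the deficient sum was the lower one. The log2 difference was -0.45 (SE 0.42), on the other side of 0 from the pools, with -0.32 for the pairs of equal number. It was -0.09 without normal sum 2 and -0.000048 among the oocytes of 17 September. By date, the median of the 8 deficient oocytes of 17 September was 7.87 CPM, against 6.28 CPM in the 9 normal ones, and that of the 6 deficient oocytes of 22 September was 10.04 CPM, against 14.8 CPM in the 6 normal ones. SETD2 had a count in 14 of 14 deficient and 14 of 15 normal oocytes, with a median of 11 counts, so single values carry a wide counting error.

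SETDB1 had 137, 140, 154 and 131 CPM in deficient sums 1 to 4, against 129, 117 and 130 CPM in normal sums 2 to 4. All deficient sums lay above all normal sums, and the log2 difference was 0.17 (SE 0.18), the opposite direction to the pools. On 17 September the deficient oocytes had a median of 143 CPM, against 129 CPM in the normal ones, and on 22 September 132 CPM, against 130 CPM in the normal ones. SUZ12 had 10.97, 14.6, 10.8 and 7.52 CPM in deficient sums, against 7.56, 15.1 and 8.34 CPM in normal sums. JARID2 had 55.8, 57.7, 30.5 and 52.5 CPM in deficient sums, against 57.4, 25.2 and 53.4 CPM in normal sums. Both PRC2 subunits overlapped between states, with differences of 0.06 (SE 0.39) and 0.11 (SE 0.29), and the sums numbered 3 were the low ones for JARID2 in both states. On 17 September JARID2 averaged 39.8 ± 13.2 CPM over 8 deficient oocytes and 41.9 ± 19.9 CPM over 9 normal ones, and on 22 September 63.7 ± 13.9 CPM over 6 deficient and 58.5 ± 15.7 CPM over 6 normal ones (SD).

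**Figure D4:**
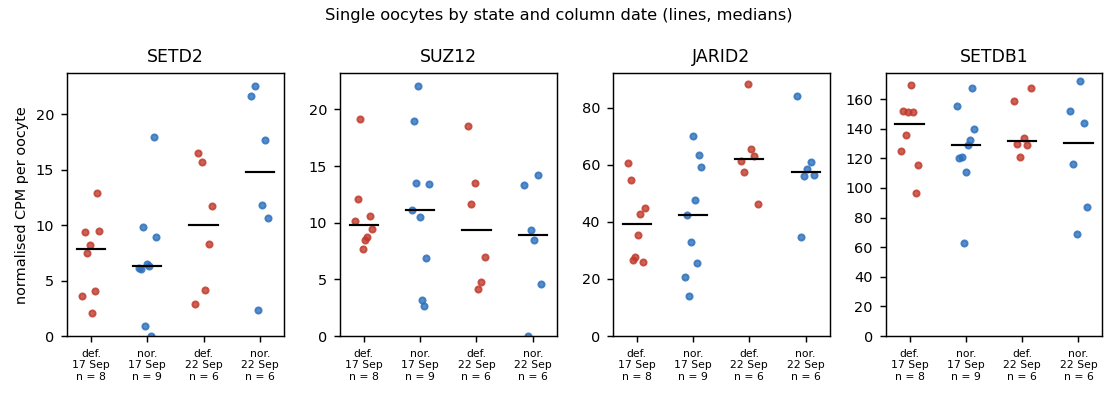
Normalised CPM of SETD2, SUZ12, JARID2 and SETDB1 in each single oocyte, by state (def., deficient, red; nor., normal, blue) and by the date in the column name, with lines at the medians. The states overlap in all 4 genes on both dates, and the median of JARID2 on 17 September is 39.2 CPM in deficient oocytes, against 42.5 CPM in normal ones, and on 22 September 62.2 CPM, against 57.4 CPM in normal ones.

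The smallest single-oocyte p among the members belonged to the H3K9 eraser KDM3A, which had 19.8, 24.6, 27.2 and 24.7 CPM in deficient sums 1 to 4, against 16.2, 16.8 and 15.99 CPM in normal sums 2 to 4. Every deficient sum lay above every normal sum. KDM3A averaged 24.1 ± 3.09 CPM over the 4 deficient and 16.3 ± 0.394 CPM over the 3 normal sums (SD), with a log2 difference of 0.56 (SE 0.27) with an unadjusted p of 0.0560, which did not pass. On 17 September the 8 deficient oocytes averaged 23.4 ± 6.27 CPM and the 9 normal ones 15.5 ± 6.48 CPM, and on 22 September the 6 deficient oocytes averaged 26.97 ± 7.85 CPM and the 6 normal ones 18.1 ± 8.92 CPM (SD). Over the 21 alternatives that tested KDM3A the difference ran from 0.46 to 0.64, and its adjusted p was 0.833 or more. In pools it was -0.0023.

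The remaining named members overlapped between the single-oocyte states. NSD1 had 46.0, 79.4, 46.0 and 56.1 CPM in deficient sums, against 67.0, 70.1 and 51.7 CPM in normal sums. KDM7A had 44.2, 31.7, 44.6 and 18.8 CPM in deficient sums, against 25.4, 32.4 and 14.8 CPM in normal sums. For these the log2 differences were -0.15 (SE 0.24) and 0.53 (SE 0.33), and KDM7A was low in the sums numbered 4 of both states. Within each of numbers 2, 3 and 4 the deficient sum had the higher KDM7A level, with a difference of 0.38 for the pairs of equal number (adjusted p 0.999 in edgeR), and without normal sum 4 it was 0.26. KMT2A, SETD1B and KDM1B differed by 0.15 (SE 0.23), -0.14 (SE 0.22) and 0.09 (SE 0.25). KDM2A, KDM6B, SETD8 and KMT2E differed by -0.0077 (SE 0.42), 0.04 (SE 0.32), -0.40 (SE 0.35) and -0.10 (SE 0.20). The widest difference of all members tested in sums was 1.09 in KDM5C, on 88 counts over all oocytes. KDM5C spanned 1.22 to 7.09 CPM in deficient and 0.890 to 1.99 CPM in normal sums. The lowest was -0.66 in KDM4A, which stood at -0.47 in pools.

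The state differences of SETD1B and SETD5 had opposite signs on the 2 dates. On 17 September SETD1B averaged 257 ± 17.2 CPM over 8 deficient and 226 ± 41.5 CPM over 9 normal oocytes, and on 22 September 147 ± 21.6 CPM over 6 deficient and 223 ± 32.5 CPM over 6 normal oocytes (SD). The log2 difference of SETD1B, with each oocyte as a sample, was 0.19 on 17 September and -0.61 on 22 September (adjusted p 0.910 and 0.385 in edgeR). SETD5 averaged 4.97 ± 2.55 CPM over 8 deficient and 14.1 ± 6.18 CPM over 9 normal oocytes on 17 September, and 18.9 ± 5.03 CPM over 6 deficient and 7.09 ± 7.77 CPM over 6 normal oocytes on 22 September (SD). Its differences were -1.45 and 1.32 (adjusted p 0.611 and 0.738 in edgeR), against -0.14 over all sums. None of these passed. Oocytes of 1 date share title numbers and are not replicates of the state, so these SDs and p-values reflect the spread among oocytes only. A difference between the dates was not tested.

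The difference of the state effect between pools and sums was tested as an interaction term over both sets. No gene of 17643 passed in edgeR (0%), nor in limma-voom, and DESeq2 called 1. An unadjusted p under 0.05 was found in 939 genes (5.32%), among them 2 of the 37 members tested. For SETD2 the pooled effect exceeded the single-oocyte effect by 1.68 on the log2 scale (SE 0.49, unadjusted p 0.00234, adjusted p 0.886). For SETDB1 the pooled effect was below the single-oocyte effect, at -0.72 (SE 0.28, unadjusted p 0.0186, adjusted p 0.886). Neither passed, so a difference between the library types in the response of these genes was not shown. For SUZ12, JARID2 and KDM3A the terms were 0.57 (SE 0.43), 0.45 (SE 0.42) and -0.55 (SE 0.37).

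More members were called by library type than by mtDNA state. Pools were compared with single-oocyte sums over both states, on CPM normalised jointly. The comparison called 27 of 37 members tested, 16 higher and 11 lower in pools, where 67.8% of all 17643 genes passed (32.5% higher, 35.2% lower). In 18 members the libraries did not overlap, against 34.1% of all genes. Kit, extraction and pooling differ together between the library types and cannot be told apart. The median of all genes was -0.13 on the log2 scale under TMM and -0.60 under DESeq2-style size factors in edgeR (RLE), so the differences named below are also given relative to the TMM median. Under RLE, 28 members were called, 15 higher and 13 lower, where 12045 of all 17643 genes passed, 4613 of them higher. The sign turned in 5 members, none of them among the 27. Without LOC102158401 and RN18S, 27 members were called, 16 higher and 11 lower. Of all 18828 genes then tested, 12475 passed, 5724 of them higher.

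**Figure D5:**
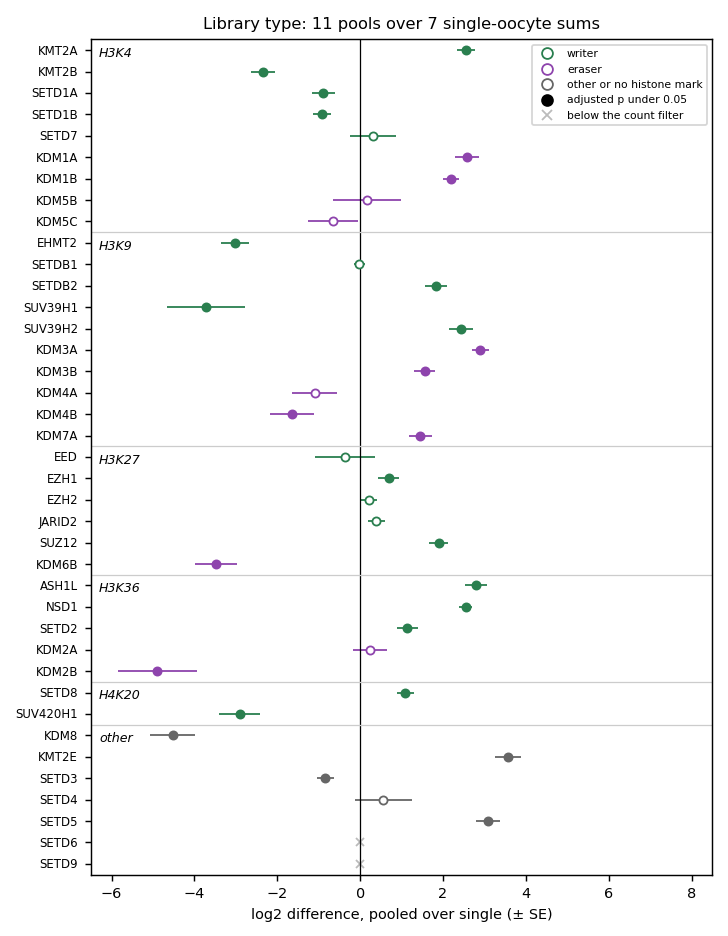
Log2 differences of the members, 11 pools over 7 single-oocyte sums, with their SE from edgeR, by target mark and role; filled points have an adjusted p under 0.05. KMT2E (3.56) and SETD5 (3.08) lie farthest to the right, and KDM2B (-4.90, below the count filter in pools alone) and KDM8 (-4.52) farthest to the left. All 3 H3K36 writers among the members lie right of 0.

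Among the members most above single oocytes in pools, KMT2E spanned 688 to 2803 CPM with a median of 1003 in 11 pools, against 91.7 to 132 CPM with a median of 115 in 7 sums. SETD5, another SET protein without clear histone activity, spanned 67.8 to 181 CPM with a median of 114 in pools, against 6.17 to 18.7 CPM with a median of 15.5 in sums. For both, every pool lay above every sum, and the log2 differences were 3.56 (SE 0.32) and 3.08 (SE 0.28), or 3.69 and 3.21 relative to the median of all genes. KDM3A spanned 109 to 255 CPM with a median of 189 in pools, against 19.6 to 34.3 CPM with a median of 22.7 in sums, a difference of 2.90 (SE 0.21), or 3.02 relative to the median. ASH1L spanned 27.8 to 73.5 CPM with a median of 45.7 in pools, against 4.26 to 10.5 CPM with a median of 6.55 in sums, a difference of 2.80 (SE 0.27), or 2.93 relative to the median. The H3K4 eraser KDM1A (LSD1) spanned 37.0 to 93.4 CPM with a median of 54.3 in pools, against 4.19 to 18.7 CPM with a median of 8.62 in sums, a difference of 2.58 (SE 0.29), or 2.70 relative to the median. None of these genes overlapped between the library types, and edgeR's adjusted p was at most 2.39e-08.

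The members most below single oocytes in pools were KDM2B, KDM8, SUV39H1, KDM6B and EHMT2. KDM8, a JmjC oxygenase, spanned 0 to 1.603 CPM with a median of 0.484 in pools, against 10.04 to 21.1 CPM with a median of 11.01 in sums. The H3K27 eraser KDM6B spanned 0 to 4.62 CPM with a median of 1.26 in pools, against 13.9 to 22.9 CPM with a median of 17.8 in sums. The H3K9 writer EHMT2 spanned 0.985 to 17.8 CPM with a median of 8.83 in pools, against 33.0 to 95.1 CPM with a median of 80.0 in sums. Every pool lay below every sum in all 3 genes, and the log2 differences were -4.52 (SE 0.54), -3.48 (SE 0.51) and -3.02 (SE 0.35), or -4.40, -3.36 and -2.90 relative to the median, with adjusted p up to 2.18e-06 (edgeR). The H3K36 eraser KDM2B and the H3K9 writer SUV39H1 had fitted differences of -4.90 (SE 0.96) and -3.72 (SE 0.94), or -4.77 and -3.59 relative to the median. These fits rest on 18 and 39 counts over 11 pools, against 69 and 42 counts over 29 single oocytes. In pools alone both genes were below the count filter. They passed the joint filter only through the single-oocyte sums, where they are higher. Their place among the 11 members called lower therefore depends on that filter. SUV39H1 overlapped between the library types and did not pass in normal libraries alone, with an adjusted p of 0.0772.

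By mark, the 3 H3K36 writers among the members, NSD1 (2.55, SE 0.15), ASH1L and SETD2 (1.14, SE 0.26), were all called higher in pools. NSD1 stood at 2.67 and SETD2 at 1.26 relative to the median. Outside the naming rule the direction was mixed. The H3K36 dimethyltransferase WHSC1 (NSD2) was lower in pools, at -1.95 (SE 0.29, adjusted p 2.1e-06 in edgeR). WHSC1L1, also outside the rule, was higher, at 1.88 (SE 0.21, adjusted p 3.8e-08 in edgeR). SETD2 was 1.77 in deficient libraries alone and did not pass in normal libraries alone (0.37, adjusted p 0.421) or among genes of a mean CPM of at least 10 (0.31, adjusted p 0.242), in edgeR. NSD1 spanned 368 to 506 CPM in pools, against 52.7 to 89.5 CPM in sums, without overlap, whereas SETD2 spanned 11.3 to 52.0 CPM in pools and 6.95 to 18.3 CPM in sums, with overlap. The H3K4 writers divided: KMT2A was higher in pools (2.55, SE 0.22), and KMT2B (-2.34, SE 0.28), SETD1A (-0.89, SE 0.28) and SETD1B (-0.93, SE 0.22) were lower. Relative to the median KMT2A stood at 2.67, KMT2B at -2.22, SETD1A at -0.77 and SETD1B at -0.80, and SETD1A did not pass in normal libraries alone (adjusted p 0.162 in edgeR). Of the H3K4 erasers, KDM1A and KDM1B (2.19, SE 0.20) were higher in pools, with KDM1B at 2.32 relative to the median, and KDM5B and KDM5C did not pass.

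H3K9 genes divided 5 higher to 3 lower, with SUV39H2 (2.43, SE 0.29), SETDB2 (1.84, SE 0.27), KDM3A, KDM3B (1.55, SE 0.25) and KDM7A (1.45, SE 0.28) higher, and EHMT2, SUV39H1 and KDM4B (-1.65, SE 0.54) lower. Relative to the median SUV39H2 stood at 2.56, SETDB2 at 1.96, KDM3B at 1.68, KDM7A at 1.58 and KDM4B at -1.52. KDM4B did not pass in normal libraries alone (adjusted p 0.0982), nor KDM7A among genes of a mean CPM of at least 10 (adjusted p 0.0535), in edgeR. SETDB1 spanned 102 to 240 CPM in pools, against 144 to 194 CPM in sums, with a difference of -0.02 (SE 0.14), or 0.11 relative to the median. SETDB1 was called lower in pools in 4 of 25 alternatives: RLE (-0.508, or 0.0960 relative to the median under RLE), DESeq2 (-0.508), genes of a mean CPM of at least 10 (-0.84) and deficient libraries alone (-0.58, adjusted p 0.0258). In normal libraries alone it was 0.41 (adjusted p 0.117). Within PRC2, SUZ12 (1.89, SE 0.23) and EZH1 (0.69, SE 0.25) were higher in pools, while EED, EZH2 and JARID2 did not pass, at -0.37 (SE 0.73), 0.22 (SE 0.20) and 0.39 (SE 0.21). Relative to the median SUZ12 stood at 2.02, EZH1 at 0.81, EED at -0.25, EZH2 at 0.34 and JARID2 at 0.52. EZH1 passed in 19 of 25 alternatives. It did not pass under RLE (0.19, adjusted p 0.490), with DESeq2 (0.19) or limma-voom (0.63), in deficient libraries alone (0.28, adjusted p 0.541) or without normal sum 2 (0.62, adjusted p 0.0521), and it turned to -0.13 among genes of a mean CPM of at least 10. Under RLE the values of EZH2 and JARID2 turned negative. The H4K20 writers parted, with SETD8 higher (1.09, SE 0.21) and SUV420H1 lower (-2.91, SE 0.49), or 1.22 and -2.78 relative to the median. SETD8 did not pass among genes of a mean CPM of at least 10 (0.27, adjusted p 0.216 in edgeR). The order of the members by mean level was similar in both library types, with a Spearman coefficient of 0.753 over 37 members and 0.693 over all 17643 genes; this correlation is across genes, which are not independent replicates, and both sets share transcript lengths.

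Partner and reader proteins of the same complexes were described beside the members. Of 50 listed genes, 36 were in the tables and 35 were tested in pools, where 12 had fitted levels higher and 23 lower in deficient pools and none passed. At an unadjusted p under 0.05 stood 3 of the 35 (8.57%), against 5.36% of all genes. They were CXXC1, which guides SET1 complexes to CpG islands, at -1.31 (SE 0.55, adjusted p 0.903 in edgeR), HCFC1, a SET1 and MLL cofactor, at -0.71 (SE 0.25, adjusted p 0.874), and WHSC1 (NSD2), an H3K36 dimethyltransferase outside the naming rule, at -0.93 (SE 0.40, adjusted p 0.903). CXXC1 averaged 4.40 ± 3.53 CPM over the 5 deficient and 10.98 ± 6.04 CPM over the 6 normal pools (SD). HCFC1 averaged 79.7 ± 11.8 CPM over deficient and 131 ± 47.6 CPM over normal pools, and WHSC1 19.3 ± 8.85 CPM over deficient and 37.0 ± 19.6 CPM over normal pools. Of 9 COMPASS partners tested, 7 had lower fitted levels in deficient pools, and in single-oocyte sums 7 of 9 had higher ones. In single-oocyte sums 23 of 33 partners had higher and 10 lower fitted levels in deficient oocytes, and 0 reached an unadjusted p under 0.05. By library type 20 of 35 partners tested were called higher and 10 lower in pools, where 32.5% of all genes were called higher and 35.2% lower.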

How the data were processed

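RNA was sequenced as 100 bp paired-end reads. The deposited tables, 1 for pools and 1 for single oocytes, hold raw integer counts for 38795 rows each. The authors used FastQC, Trim Galore, TopHat2 2.0.14, edgeR and Sscrofa10.2, per the submitters' processing notes. Neither the counting program nor its strand setting is given in the sources used here, so counts of overlapping or near-identical genes are uncertain. The row that names no gene (0.648% to 8.15% of counts) was left out. LOC102158401 and RN18S held 61.5% and 3.39% of single-oocyte counts.

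Counts were tested in R 4.3.3 with edgeR 4.0.16 (default count filter, TMM, quasi-likelihood test), adjusted by Benjamini-Hochberg over all genes tested at 0.05, pools and sums each alone and jointly for the interaction and library type. CPM are TMM-normalised. DESeq2 1.42.0, limma-voom (limma 3.58.1), other filters and scalings, libraries left out, title letters and dates served as alternatives. The tests were checked on simulated counts. No 2 libraries of a group agreed within sampling noise (chi-square per degree of freedom at least 35.0 in pools and 4.09 in single oocytes). Sums with the same title number deviated together (r = 0.166, 0.217 and 0.169 for numbers 2, 3 and 4), which was taken as pairing from the data; the numbers' meaning is not stated.

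The members, marks and lists were chosen with earlier results of these data known. Genes given with values were SETD2, SETDB1 and SUZ12, members with an unadjusted p under 0.05 by state, the member of highest mean CPM of each mark and role, and the 5 most shifted each way by library type; KDM5B, SETD7, EZH1, EZH2, EED and others were added after their values were seen. Of 39 members, 37 matched a gene symbol of Sscrofa11.1.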

Additional observations from a re-analysis of the deposited data

Results flagged for a closer look

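In each group of 4 or 5 deficient libraries and 6 normal pools, the highest or lowest member value was compared with the others by Dixon's criterion, which picks out about 1 in 20 groups by chance. Of 103 groups, 6 had such a value. In deficient pools EED stood at 1.69 CPM in B2, with the others at 0.0850 to 0.545. KDM5C stood at 0.273 CPM in deficient A2, with the other deficient pools at 2.38 to 2.75, and SETD4 stood at 8.90 CPM there, with the others at 0.255 to 1.74. SETDB1 was also lowest in deficient A2, at 118 CPM, with the others at 155 to 164. In normal pools KMT2E stood at 3194 CPM in A3, with the others at 879 to 1312. Among single-oocyte sums SETDB2 stood at 5.67 CPM in deficient sum 2, with the others at 4.23 to 4.30. The state effect of SETDB1 differed in direction between library types without overlap of states in either, by -0.72 on the log2 scale, and the test of that difference did not pass (edgeR adjusted p 0.886).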

How the results depend on the processing

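Counts of genes past the threshold were within 1.5 times the reported one except as follows. Between pools, DESeq2 called 28 genes in place of 0, and 1 member, SETD2, in place of 0 (log2 difference 1.22). Between single-oocyte sums, where edgeR called 0, the count was 2 with DESeq2, 4 with no count filter, 1 with each oocyte as a sample, with or without date as a term, and 2 in oocytes of 17 September. For the interaction it was 1 with DESeq2 and 3 with single oocytes as samples. With genes of a mean CPM of at least 10, 5309 of 6628 genes differed by library type, as fewer genes were tested. Leaving out 1 library at a time gave 26 to 28 members and 11464 to 12053 genes by library type and 0 by state.

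With the title number as replicate block, 6 sums gave 2 genes and no member. Sums by title number and date, chosen after seeing the data, gave 0 genes with or without date as a term, and 1 gene in 8 such sums with number and date as block. The 8 pools that share a title (r = -0.0798, 0.137, 0.470 and 0.123) gave 0 genes with and without the block.

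Among single-oocyte sums JARID2 changed sign to -0.060 in oocytes of 17 September and -0.023 under the block of 8 sums, and ran from -0.18 to 0.30 with 1 sum left out. SUZ12 changed to -0.018 with limma-voom and -0.060 in oocytes of 17 September, and ran from -0.12 to 0.44 with 1 sum left out. SETD1B and SETD5, among other members, changed sign between dates. The cause was not tested. Of the 27 members called by library type, 8 lost the call in at least 1 alternative. SETD6 (9 counts over pools, 0 over single oocytes) and SETD9 (64 and 5) were not testable.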
